A study of Drosophila melanogaster with 4 samples.

Results

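CG18446, now called Lime, is 1 of the 2049 genes in the count table of this series, and it was chosen by its gene symbol with its difference between the media already known. The gene encodes a C2H2 zinc finger protein, a type of protein that folds around zinc ions and often binds DNA. Its name stands for linking immunity and metabolism. In fly larvae it is known for roles in blood cells and in the fat body, the tissue that stores sugar and fat. In wild flies its promoter is known for insertions of roo, a retrotransposon, that have been studied for their effect on stress responses.

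The study compared S2 cells, a Drosophila embryonic cell line with features of blood cells, after 4 h in Schneider's medium or 4 h in Krebs Ringer Bicarbonate (KRB), to ask which pathways amino acid starvation switches on. Schneider's medium, here with serum, is the medium in which these cells grow. KRB is a buffered salt solution with glucose but without amino acids and serum, and with more sodium than Schneider's medium, which also holds glucose, so the effects of these differences cannot be told apart. After removal of ribosomal RNA, the RNA of 2 biological replicates per medium was sequenced, all from the same line with no gene targeted.

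The table holds only genes that the authors had selected for a difference between these libraries, so every listed gene is higher or lower by design. Each library had 1108029 to 2801713 reads on listed genes, and the full depth is unknown here. After TMM scaling in edgeR, 1756 genes passed the filter on low counts. Of these, 742 (42.3%) were called higher and 942 (53.6%) lower in KRB, a call being a Benjamini-Hochberg adjusted p below 0.05 in the quasi-likelihood test of edgeR. All adjusted p-values below come from this test, and log2 fold changes are of KRB over Schneider's medium, with their standard error (SE). The split depended on the scaling, with 335 higher and 1004 lower genes under library totals, 748 and 547 under upper-quartile factors, 749 and 178 under relative log expression factors and 734 and 89 under DESeq2. Without KRB replicate 1, 682 genes were higher and 530 lower. Because the authors had selected the genes on these libraries, none of these calls is independent evidence of a direction. Over all detected genes, the paper counted more genes up than down in KRB, the reverse of the split under TMM here. Its up and down genes together outnumber the genes listed here, and its calls came from another fit, so these splits are of unlike sets. A gene that is not listed here may still be one that the paper counted. A level is relative to the rest of the listed RNAs, and in such bulk samples fewer cells of a type and less RNA per cell cannot be told apart. The paper observed a general fall in RNA levels in KRB, so a higher level here need not mean more RNA per cell.

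CG18446 lies on 2R from 9871470 to 9873646 on the plus strand of the BDGP6 assembly. It has 2 exons of 1710 and 405 nt that are separated by an intron of 62 nt. The annotated 5′ UTR is 280 nt long and the 3′ UTR 371 nt long. A roo insertion of 434 nt is annotated from 9871090 to 9871523, and it covers the first 54 nt of the gene, all of them in the 5′ UTR. Whether S2 cells carry this insertion was not tested. The whole gene sits in an intron of CG46338, also called peo, which is read from the other strand, and the exons of both genes share 0 nt. The libraries were made with a stranded kit, but the use of strand in counting is not given in the sources used here.

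CG18446 was several times higher in KRB than in Schneider's medium. In Schneider's medium it had 229 reads in replicate 1 and 529 in replicate 2, and in KRB it had 1453 and 2103. After TMM scaling these came to 279.6 and 314.6 normalized counts in Schneider's medium and to 1966 and 2140.1 in KRB. Both KRB libraries lay far above both Schneider's libraries, and the lowest KRB value was 6.25 times the highest Schneider's value. The mean was 297 ± 24.7 (SD, n = 2) for Schneider's medium and 2053 ± 123 (SD, n = 2) for KRB, and the log2 fold change was 2.79 ± 0.16 (SE), or 6.90-fold. Of all tested genes, 42.5% had higher normalized counts in each KRB library than in either Schneider's library, and 56.5% had the reverse order. No p-value is given for CG18446, because it was chosen for this difference.

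**Figure D1:**
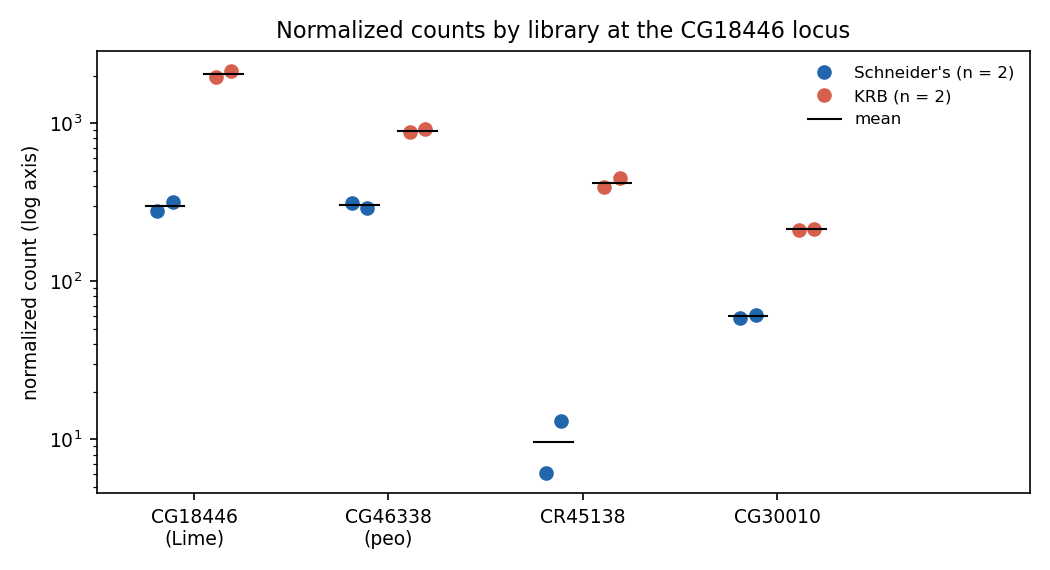
Normalized counts (log axis) of CG18446 and of 3 listed genes at the same locus, with 1 point per library, blue for Schneider's medium and red for KRB (n = 2 each), and a black line at each mean. The KRB points lie above the Schneider's points for each gene, with CG18446 between 1966 and 2140.1 in KRB and between 279.6 and 314.6 in Schneider's medium.

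The size of this difference moved with the scaling, and its direction did not. Scaling by library totals gave a log2 fold change of 1.81 (3.50-fold), and DESeq2 gave 3.53 (11.6-fold). In the median, these settings shifted the log2 fold changes of all tested genes by -0.97 and 0.74. By log2 fold change, CG18446 stood at place 144 of 1756 tested genes under TMM, at 145 under library totals, upper-quartile and relative log expression factors and at 146 under DESeq2. Where other genes entered the fit the place moved more, to 290 of 2049 with no filter and to 254 of 1862 without Schneider's replicate 1. Leaving out each library in turn gave log2 fold changes from 2.55 to 3.04.

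**Figure D2:**
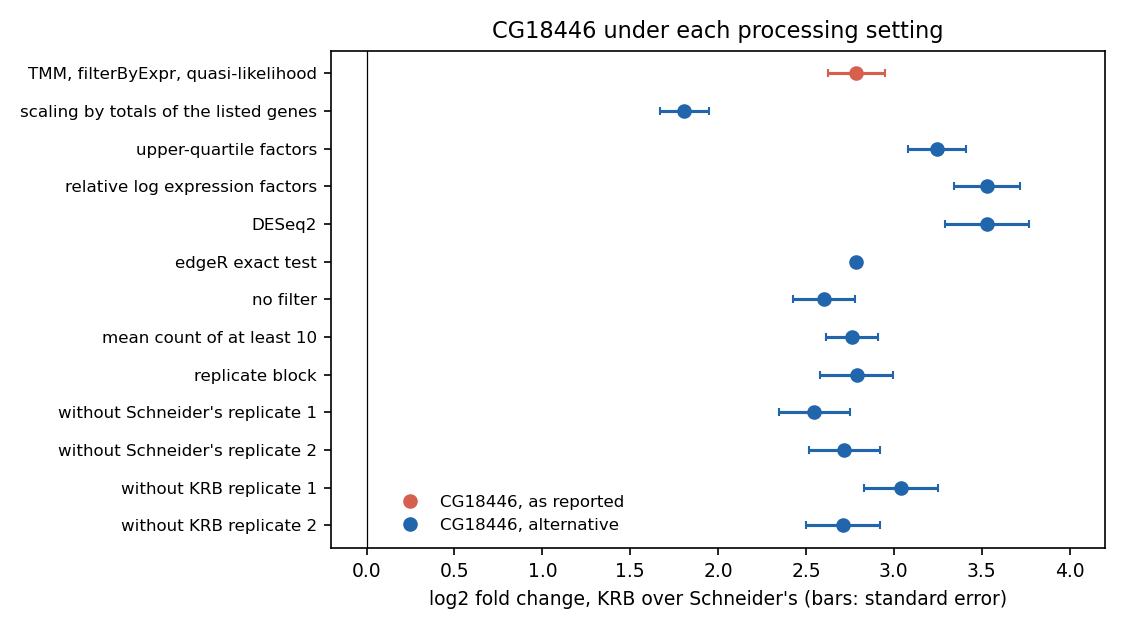
Log2 fold change of CG18446 in KRB over Schneider's medium under each processing setting, with the reported value in red, the alternatives in blue and bars of 1 standard error (none for the exact test). All points lie above 0, from 1.81 with library totals to 3.53 with DESeq2.

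A view that needs no scaling is the place of CG18446 within each library. Per kb of exon, CG18446 had 108 and 250.1 reads in Schneider's and 687 and 994 in KRB. Among the 2040 listed genes with an annotated length, this level per kb stood above 64.3% and 65.8% of genes in the Schneider's libraries. In the KRB libraries it stood above 92.9% and 92.8%. The replicates of a medium stood close together, and the media far apart. Every listed gene had been selected for a difference, and CG18446 was chosen with its own known, so this shift in place is a description.

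The mean count of CG18446 over the 4 libraries, 1078.5, came mostly from KRB, so it was not independent of the difference. CG18446 was also chosen for this difference, so its place by both is a description. Of the 255 other tested genes with a mean count as high or higher, 4 had a larger log2 fold change. These were CG7142 with 7.22, Rcd2 with 3.32, Tret1-1 with 2.99 and CG8177 with 2.86. They are named because they complete this count, and no test of CG18446 against them was made.

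CG18446 was not the sole gene at its locus with a higher count in KRB. Within 10 kb on either side, a window chosen after the values were seen, 11 genes are annotated, 5 of them listed, and in the other 4 listed genes, too, each KRB library stood above either Schneider's library, as in 42.5% of all tested genes. The unlisted genes at the locus are not analysed here. The nearest listed gene that starts before it is CR45138, a long non-coding RNA on the same strand that ends 2310 nt before CG18446 starts and that also lies in an intron of CG46338. It had 5 and 22 reads in Schneider's and 290 and 441 in KRB. CR45138 thus went from few reads to many, a log2 fold change of 5.32 ± 0.34 (SE; adjusted p = 0.000603). This value was 4.84 without Schneider's replicate 1 and 5.92 without Schneider's replicate 2.

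CG46338, the host gene, encodes Pendolino, a protein needed to protect fly chromosome ends. It had 255 and 490 reads in Schneider's and 646 and 900 in KRB, and it rose with a log2 fold change of 1.57 ± 0.16 (SE; adjusted p = 0.000892). It shares 20.4% of its exon length with neighbouring genes on the other strand. CG30010, whose end overlaps that of CG46338 on the other strand over 6.98% of its exon length, had 48 and 103 reads in Schneider's and 156 and 210 in KRB. Its log2 fold change was 1.82 ± 0.21 (SE; adjusted p = 0.00116). CR44293, annotated as antisense to PCB, the gene for pyruvate carboxylase, shares 23.2% of its length with it. CR44293 had 1 and 1 reads in Schneider's and 17 and 17 in KRB, and was at least 7.40-fold higher against a floor of 3 reads per library.

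**Figure D3:**
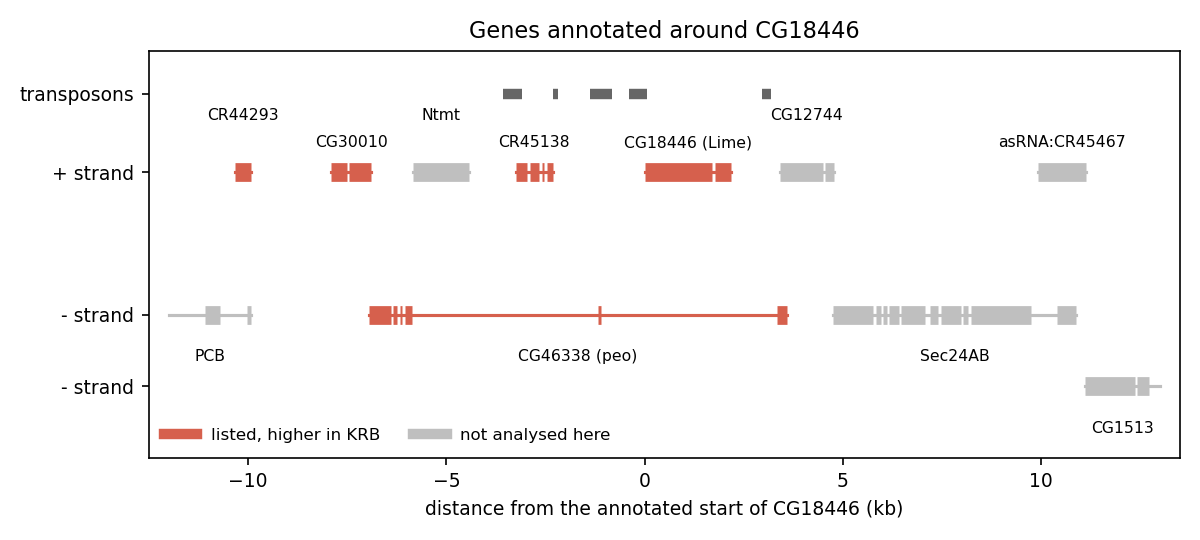
Genes annotated around CG18446 by distance from its start in kb, with boxes for exons, lines for introns, red for listed genes that were higher in KRB, grey for genes not analysed here and a separate row for transposons. The 5 listed genes all lie between -10.325 and 3.602 kb, and CG18446 and CR45138 both sit inside the span of CG46338.

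Ratios within a library, which do not depend on scaling, separated these genes. CG18446 had 0.898 and 1.08 reads per CG46338 read in Schneider's medium and 2.25 and 2.34 in KRB. CG18446 therefore went from about the same number of reads as its host gene to more than it in both KRB libraries. Against CG30010 the ratio was 4.77 and 5.14 in Schneider's medium and 9.31 and 10.01 in KRB. Against CR45138 it went the other way, from 45.8 and 24.1 to 5.01 and 4.77. CR45138 thus gained more than CG18446 did, though its Schneider's counts were small. Reads from introns of CG46338 were not counted apart, and their part in the counts of CG18446 and CR45138 was not tested.

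On the other side of CG18446, the nearest listed genes were 37246 and 85472 nt away. Both fell in KRB, as 53.6% of all tested genes were called lower. Etf-QO, which encodes a mitochondrial electron transfer enzyme, had 674 and 1713 reads in Schneider's and 288 and 294 in KRB, with a log2 fold change of -1.42 ± 0.21 (SE; adjusted p = 0.00190). CG15863 had a log2 fold change of -1.22 ± 0.30 (SE; adjusted p = 0.00887), and this call was lost under relative log expression factors and DESeq2 (-0.47 for both). CG15863 shares 20.8% of its exon length with Pal1 on the other strand.

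The genes whose pattern over the 4 libraries was most like that of CG18446 were found by the root mean square distance between log2 values centred on each gene's mean, over 1431 tested genes whose mean count was 20 or more. The nearest was GstE7, a glutathione S-transferase of the epsilon class, at a distance of 0.10 log2. It had 183 and 416 reads in Schneider's and 1009 and 1436 in KRB, and its reads may be shared with close relatives. MFS14, a transporter of the major facilitator superfamily, followed at 0.13, with 364 and 892 reads and then 2111 and 2789. Both were thus counted at the same order of magnitude as CG18446.

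Glut1, a glucose transporter, came next at a distance of 0.14, with 8 and 22 reads in Schneider's and 51 and 89 in KRB. CG5404 was at 0.15 and l(1)G0469 at 0.16. The log2 fold changes of these 5 genes lay between 2.54 and 2.80, close to the 2.79 of CG18446, as a distance of this kind selects for. Tret1-1, which carries trehalose, the main blood sugar of flies, came just after them at 0.16. CG18446 had 0.373 and 0.470 reads per Tret1-1 read in Schneider's medium and 0.371 and 0.357 in KRB. Both KRB ratios lay below both Schneider's ratios, with 0.371 in KRB close to 0.373 in Schneider's medium. With 4 libraries in 2 groups, many genes that are higher in KRB resemble each other, and the distances are a description.

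**Figure D4:**
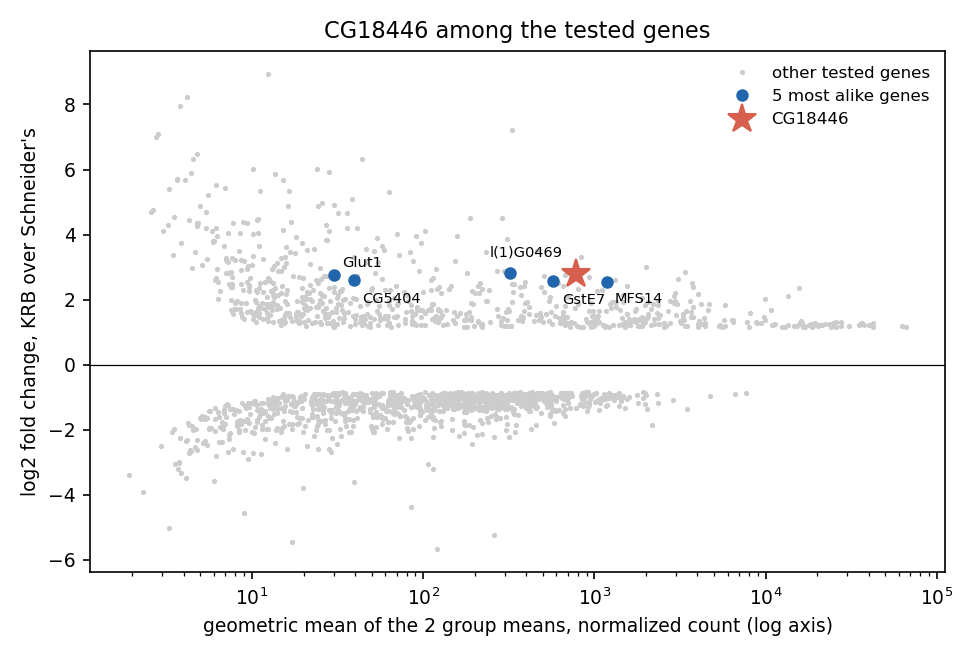
Log2 fold change in KRB over Schneider's medium against the geometric mean of both group means (normalized counts, log axis), with 1 point per tested gene, CG18446 as a red star and the 5 most alike genes in blue. CG18446 stands at 2.79 among well counted genes, level with GstE7, MFS14, Glut1, CG5404 and l(1)G0469, and the empty band around 0 comes from the authors' selection of genes.

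Other zinc finger genes were also listed. A list of 60 C2H2 zinc finger genes was written by hand, so members of the family outside it were not counted. Of these 60, 9 were listed, CG18446 and 8 others. Of these 8, 6 passed the filter on low counts, and all 6 rose in KRB, against 42.3% called higher over all tested genes. The 6 other tested members had a median log2 fold change of 1.79, against -0.92 over all tested genes. Every listed gene had been selected by its difference, and neither the unlisted genes of these 60 nor other zinc finger genes are analysed here.

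Among these, peb (also called hindsight), which shapes epithelia in the embryo, had 4 and 15 reads in Schneider's and 120 and 212 in KRB, a log2 fold change of 4.66 ± 0.37 (SE; adjusted p = 0.000784). Of the tested members of this list with a mean count of 20 or more, peb alone lay above CG18446, but its Schneider's counts were small. Its log2 fold change was 4.23 without Schneider's replicate 1 and 5.08 without Schneider's replicate 2. The log2 fold change was 1.85 for bowl, of the odd-skipped family, 1.72 for br, an early target of the moulting hormone ecdysone, and 1.67 for Kr-h1, which acts in the response to juvenile hormone. Their standard errors were 0.27, 0.16 and 0.17. Kr-h1 shares 78.6% of its exon length with CG45075 on the same strand, so its reads are uncertain. The lowest value was that of ken, a repressor of some targets of the JAK/STAT pathway, with 1.21 ± 0.19 (SE). Scaling by library totals ended the call of ken (0.23).

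The other members had few reads. The odd-skipped family gene drm had 0 and 4 reads in Schneider's and 17 and 33 in KRB, and it was called higher (log2 fold change 4.10 ± 0.68, SE). Without Schneider's replicate 1 this value was 3.37, and without Schneider's replicate 2 no Schneider's read was left to set a fold. The gap gene hb had 1 and 0 reads and then 9 and 11, at least 4.29-fold higher against a floor of 3 reads per library. For Kr, another gap gene, 0 and 2 reads stood against 3 and 5, too few to give a fold. Neither hb nor Kr was tested.

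Of 34 genes for the transport and use of glucose and trehalose, 7 were listed and tested, and 5 of them rose while 1 fell (42.3% of all tested genes were called higher and 53.6% lower). Their median log2 fold change was 1.91, against -0.92 over all tested genes. The rising genes were mainly carriers of sugar. Tret1-1 had 614 and 1126 reads in Schneider's and 3919 and 5890 in KRB, a log2 fold change of 2.99 ± 0.17 (SE; adjusted p = 0.000603). For Glut1 it was 2.76 ± 0.36 (SE), and for sut2 and sut4, both annotated as sugar transporters, 1.91 and 1.95 (standard errors 0.33 and 0.45). Hex-A, the hexokinase that starts glycolysis, had a log2 fold change of 1.87 ± 0.19 (SE). The call of sut4, with 2 and 9 reads in Schneider's medium, was lost under library totals (1.00) and without KRB replicate 2 (2.01), and its value was 2.57 without Schneider's replicate 2.

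The 2 listed genes of this group with lower values encode phosphoenolpyruvate carboxykinase, an enzyme of glucose synthesis. Pepck had 587 and 1091 reads in Schneider's and 122 and 128 in KRB, and it fell with a log2 fold change of -2.21 ± 0.20 (SE; adjusted p = 0.000784). All of its exon length is shared with CG45087 on the same strand. CG10924 had 41 and 19 reads and then 7 and 6, a log2 fold change of -1.89 ± 0.82 (SE; adjusted p = 0.0618). The test did not call it, though each KRB library lay below either Schneider's library. It was called under library totals (-2.88), with the exact test (-1.94), with a replicate block (-1.77) and without Schneider's replicate 2 (-2.85), and its value was -0.72 without Schneider's replicate 1.

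Some of the genes that report on sugar sensing or on starvation were listed. Most of all genes that the paper detected were not listed either, so the numbers listed are a description. Of 16 sugar response genes, 2 were listed, 1 of them called higher and 1 lower (42.3% and 53.6% of all tested genes), with a median log2 fold change of 0.64 (-0.92 over all tested genes). Hr38, an orphan nuclear receptor with roles in carbohydrate metabolism, had 15 and 20 reads in Schneider's and 49 and 74 in KRB, and it rose (log2 fold change 2.27 ± 0.36, SE; adjusted p = 0.00223). Ilp6, an insulin-like peptide, had 1355 and 3215 reads and then 615 and 936, and it fell (-0.999 ± 0.16, SE; adjusted p = 0.00242). The call of Ilp6 was lost under relative log expression factors (-0.25), DESeq2 (-0.25) and without KRB replicate 1 (-0.71).

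Of 31 genes of starvation and TOR signalling, 3 were listed, and all 3 were called higher (42.3% of all tested genes), with a median log2 fold change of 1.37 (-0.92 over all tested genes). JhI-21, an amino acid transporter, had a log2 fold change of 1.17 ± 0.19 (SE), and Gadd45, a stress response gene, had 1.37 ± 0.22 (SE). By PCR, the paper found no change in the level of gadd45 RNA in KRB. Thor, a repressor of translation that TOR holds in check, had 7 and 36 reads in Schneider's and 51 and 27 in KRB, with a log2 fold change of 1.57 ± 0.60 (SE; adjusted p = 0.0410). Under library totals the calls of all 3 were lost (0.19 for JhI-21, 0.38 for Gadd45 and 0.63 for Thor). That of Thor was also lost without Schneider's replicate 1 (0.98), without KRB replicate 1 (0.99) and without the filter on low counts (1.38), and its value was 2.29 without Schneider's replicate 2.

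CG18446 is known from blood cells, in which the JAK/STAT pathway carries cytokine signals. Of 16 genes of this pathway, 4 were listed and all 4 rose (42.3% of all tested genes were called higher), with a median log2 fold change of 1.77 (-0.92 over all tested genes). The table holds only genes selected for a difference. The cytokine upd2 had 113 and 50 reads in Schneider's and 1016 and 905 in KRB, and its log2 fold change of 3.85 ± 0.67 (SE; adjusted p = 0.00280) was above that of CG18446. The related cytokine upd3 had 110 and 94 reads and then 343 and 382, with 2.20 ± 0.41 (SE; adjusted p = 0.00343). Their Schneider's replicates differed more than those of CG18446, with 138 and 29.7 normalized counts for upd2. The value of upd2 was 5.10 without Schneider's replicate 1 and 2.90 without Schneider's replicate 2, and that of upd3 was 1.51 without Schneider's replicate 2. Socs36E, a feedback inhibitor of the pathway, had a log2 fold change of 1.34 ± 0.24 (SE), and ken is the fourth gene. Under library totals the calls of Socs36E (0.35) and ken were lost.

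**Figure D5:**
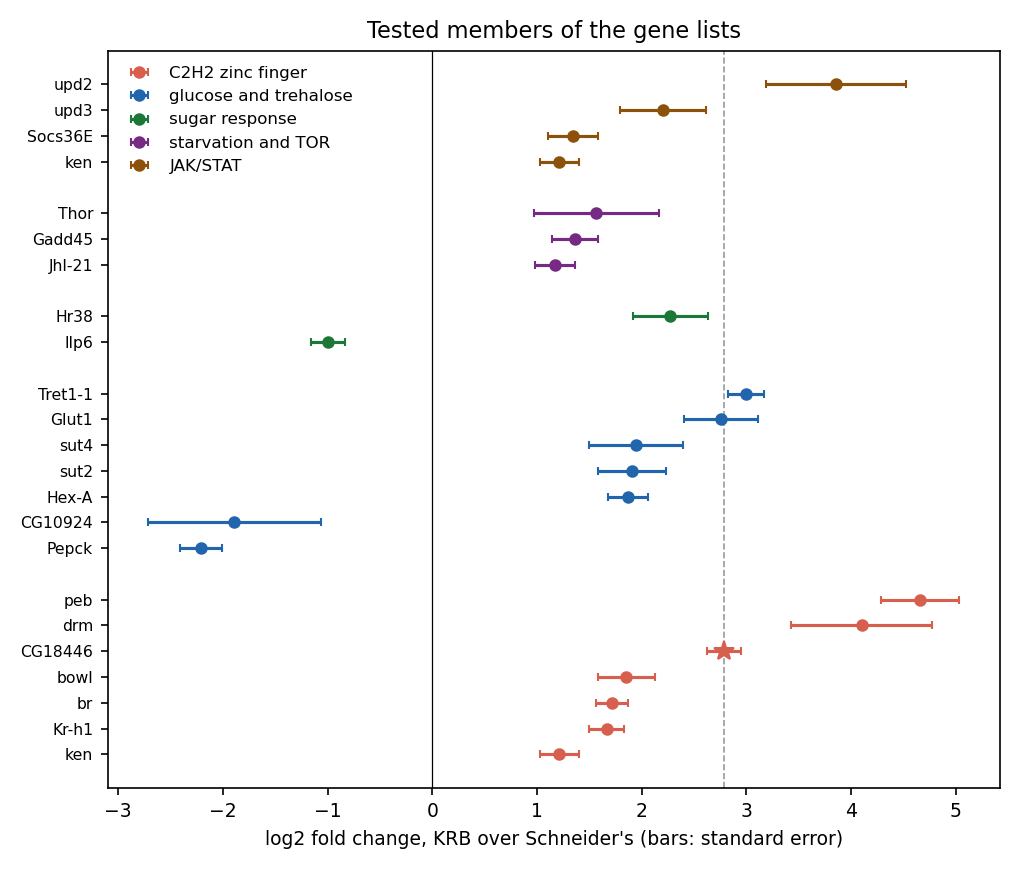
Log2 fold change in KRB over Schneider's medium of the tested members of 5 gene lists, with bars of 1 standard error and a dashed line at the 2.79 of CG18446 (star). Most members lie above 0, with peb, drm, upd2 and Tret1-1 to the right of the dashed line, and Pepck, CG10924 and Ilp6 lie below 0.

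Some markers of blood cells were listed. Of 11 markers of plasmatocytes and S2 cells, 2 were listed, the phagocytic receptors eater and Sr-CI, and both fell (53.6% of all tested genes were called lower), with log2 fold changes of -1.38 ± 0.33 (SE; adjusted p = 0.00831) and -1.38 ± 0.53 (SE; adjusted p = 0.0423). Under relative log expression factors and DESeq2 both calls were lost (-0.67 and -0.69 for eater and Sr-CI with the former), as they were without KRB replicate 2 (-1.02 and -1.03). The call of Sr-CI was also lost under upper-quartile factors (-0.95), with a mean count of at least 10 (-1.42), without Schneider's replicate 1 (-0.59) and without KRB replicate 1 (-1.67), and its value was -2.11 without Schneider's replicate 2. Their summed normalized counts were 1073 to 1937 in Schneider's medium and 409 to 748 in KRB. Of 3 crystal cell markers, PPO1 was listed, with 1 and 1 reads in Schneider's and 5 and 6 in KRB. None of the markers drawn up for lamellocytes, fat body, neurons, muscle and germline was listed, so their levels are not analysed here. The part of the changes in eater and Sr-CI in the values of CG18446 was not tested.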

How the data were processed

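RNA of S2 cells was sequenced from 2 libraries per medium. Reads were mapped by the authors to Dm6 with STAR 2.4.0.1, and an in-house script counted reads per transcript. They deposited raw counts per gene symbol, without normalization, for 2049 genes. The deposited log2 fold change and p-value columns hold the authors' edgeR 3.24.3 comparison. They were read only to check how the table was filtered: in every listed gene the size of the log2 fold change is 1 or more and the p is under 0.05.

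Counts were analysed with edgeR 4.0.16 (R 4.3.3): filterByExpr (293 genes removed), TMM scaling, and the two-sided quasi-likelihood F-test with medium as the sole term, adjusted by Benjamini-Hochberg over 1756 genes. For normalized counts, each library's counts were divided by its TMM-scaled size, set so that the 4 sizes have a geometric mean of 1. Standard errors are the log2 fold change divided by the square root of F. The prior count of log2 values for the distances was 2. Floors cover counting error only. Alternatives were other scalings, DESeq2 1.42.0, the exact test, other filters, adjusted p under 0.01, a replicate block and each library left out.

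The gene and the lists were chosen with earlier results of these data known. The genes named are CG18446, overlapping genes and 2 listed neighbours per side, the 5 most alike genes, members of the lists and, of the zinc finger genes, the 3 largest and 3 smallest changes. Others complete a count and were named after their values were seen. A protein table was not used here, so zinc finger genes came from a list of symbols. Positions are from Ensembl release 115 (BDGP6, the assembly of Dm6), to which 2040 symbols matched. No sequence is printed. Scripts were tested on simulated data. Summaries were made with Python 3.11.15 and pandas 2.3.3, and figures with matplotlib 3.10.9.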

Additional observations from a re-analysis of the deposited data

How the results depend on the processing

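CG18446 was higher in KRB under every setting run. Its log2 fold change, 2.79 as reported, was 1.81 with library totals, 3.25 with upper-quartile factors, 3.53 with both relative log expression factors and DESeq2 and 2.60 without a filter, moves of more than the spread between replicates. By construction the scalings differ in the library sizes alone. Leave-one-out values lay between 2.55 and 3.04. In counts per 1000000 reads on listed genes, its mean was 213 in Schneider's medium and 746 in KRB, and with TMM library sizes it was 152 and 1049.6. The genes called higher fell from 742 to 335 with library totals. The genes called lower fell from 942 to 547 with upper-quartile factors, to 178 with relative log expression factors and to 89 with DESeq2, and lay between 530 and 938 when single libraries were left out. Of the genes in the 4 lists other than zinc fingers, 13 were called higher, against 7 with library totals, and 2 lower, against 1 with both relative log expression factors and DESeq2, and 1 to 3 when single libraries were left out. The zinc finger count of 6 stayed between 5 and 7.

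With a replicate block, CG18446 had a log2 fold change of 2.79, and 751 genes were called higher and 1004 lower. Of the named genes tested, CG10924 alone changed its call under the block, as it was then called lower (-1.77). Differences between replicates correlated at 0.298 between the media over 1756 genes, but nothing in the labels or the paper ties the 2 pairs beyond their number. No named gene reversed. The small Schneider's counts of CR45138, peb, drm and sut4 limit their values. Apart from library totals, the scalings used here assume that most genes do not change, but every listed gene was selected for a change. No scaling can therefore be shown to be right on the listed genes alone. They can be set beside the authors' filter, under which every listed gene had a log2 fold change of 1 or more in size. Under TMM, JhI-21 had 1.17, ken 1.21 and Ilp6 -0.999, all near or beyond this limit. Library totals gave 0.19 for JhI-21 and 0.23 for ken, and relative log expression factors gave -0.25 for Ilp6. For these genes TMM thus lay closer to the authors' filter than those scalings did.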
